A study of Mus musculus with 44 samples.

Results

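The cytosolic ribosome is built from ribosomal RNA and about 80 proteins, those of the large subunit (RPL genes, with the acidic stalk genes RPLP0, RPLP1 and RPLP2) and those of the small subunit (RPS genes, with RPSA). Members were taken by symbol, as RPL or RPS followed by a number and an optional A, X, L or Y with further digits, plus RPLP0, RPLP1, RPLP2 and RPSA, so that the S6 kinases did not enter. This gave 75 of the 8218 genes in the in vivo table (46 of the large and 29 of the small subunit) and 79 of the 12335 genes in the culture table (48 and 31). Of the 80 members in either table, 74 were in both, RPL3L was in the in vivo table alone, and RPL17, RPL21, RPL39L, RPS15A and RPS2 were in the culture table alone. The choice used no measured value.

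Ribosomal protein mRNAs are among the most abundant in any cell, and the proteins are made in near equal amounts because each ribosome holds 1 copy of nearly all of them. Most of these mRNAs begin with a C followed by a run of pyrimidines, the 5′ terminal oligopyrimidine (TOP) tract, through which the growth-controlling kinase mTOR regulates their translation. Microglia are the resident macrophages of the central nervous system, and monocytes enter the injured spinal cord from the blood and turn into macrophages there.

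The series holds 44 RNA libraries from C57BL/6 mice. In vivo, a laminectomy at T12 was followed by a contusion of 200 kdyn, and cells were sorted from the cord. Monocytes, a label that takes in macrophages derived from them, were taken at 16 h and at days 1, 3 and 7 with 2 libraries per time (8 in all). Microglia gave 13 libraries, of which 3 were from time 0 and the others came in pairs from 1 h and 16 h and from days 1, 3 and 7. The labels list the time 0 mice as injured too, name no sorting gate, and give 1 of the 1 h microglia libraries a time tag of 2 h; its title was used. In culture, TGFb1 at 100 ng/ml was given for 0, 1, 3, 6, 16 or 20 h to bone marrow cells differentiated into macrophages by M-CSF (11 libraries) and to microglia taken from primary glial cultures of newborn mice (12 libraries). Each time had 2 libraries per cell type, except for 1 of macrophages at 6 h. No later culture without TGFb1 was among them, so time in culture and TGFb1 cannot be told apart. The column headers of the macrophage libraries begin with A and those of the microglia libraries with B, and whatever these letters stand for cannot be told apart from cell type. No label tells whether the replicates of a group were taken from different animals or dishes. The p-values measure the spread between these libraries, which may be technical.

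Values are the authors' scaled signal per gene, in which 1 stands where no read was counted. Dividing by the smallest step between values gave 133911 to 731692 reads in a monocyte library and 31459 to 187973 in a library of cord microglia. The cultures were deeper, with 1172368 to 1881002 reads for macrophages and 1746624 to 2249291 for microglia. Of these, ribosomal protein genes held 7582 to 40138 reads in the monocyte libraries of 16 h to day 7 and 933 to 3628 in the microglia libraries of the same times. Neutrophil transcripts (21 measured markers) took 0.285% to 0.759% of the monocyte libraries and 4.68% to 23.6% of the cord microglia libraries. S100A9, the abundant neutrophil protein calgranulin B, had a median of 64.0 in monocytes and 6279 in cord microglia. Of the microglial markers, TMEM119 had a median of 7.45 in monocytes and 37.4 in cord microglia, where it was listed at 1 in 1 of 13 libraries, and the purine receptor P2RY12 had 2.22 in monocytes and 3.52 in cord microglia. CCR2, the chemokine receptor of blood monocytes, had a median of 96.2 in monocytes and 28.0 in cord microglia, while LY6C2, on the same marker list, had 56.6 in monocytes and 86.3 in cord microglia. Over the 4 times measured in both, limma on all genes called 9 of 14 monocyte and macrophage markers higher in monocytes and 1 lower. Of 15 microglial markers 0 were higher and 10 lower, where 3.97% of all genes were higher and 3.6% lower. Haemoglobin and other erythroid transcripts exceeded 0.1% in 4 libraries, which were monocytes at day 1 replicate 1 and microglia at 1 h replicate 1, 16 h replicate 2 and day 1 replicate 2. In these bulk libraries, fewer cells of a type and less RNA per cell cannot be told apart.

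The values of the members carried many fractions of a read. Within a tolerance of 0.05 reads, a median of 9.52% of a member's in vivo values were whole numbers of reads, against 100% for the other genes and also for other genes at or above the members' median level. In culture the medians were 8.70% for members, 100% for the other genes and 82.6% for other genes at or above the members' level. A counter that divides reads among matching genes gives such fractions, but which counter was used is not known here. Near-identical processed copies of ribosomal protein genes are frequent in the mouse genome, so single members are uncertain as to how much of their signal came from the named gene. Some members had more whole values, such as RPL39L and RPS15A with 100% in culture.

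The start of the transcript is shown for some members called in the comparisons below, since the TOP tract is the sequence that this family is known for. Of these, 4 have such a tract at the start and RPLP0 and RPL22L1 do not. They do not stand for the called members. Between cord monocytes and microglia over 4 times, 7 of 12 members with a tract and 20 of 45 without were called, where 3.97% of all genes rose. Each line gives 10 bases before the RefSeq start site and 20 from it, in GRCm38.p6, with an unbroken run of pyrimidines at the start site in capitals. RPS18 is at chr17:33955646-33955675 and RPS10 at chr17:27635225-27635254 on the minus strand. RPL14 is at chr9:120571507-120571536, RPL28 at chr7:4792955-4792984, RPLP0 at chr5:115559457-115559486 and RPL22L1 at chr3:28805498-28805527 on the plus strand.
RPS18: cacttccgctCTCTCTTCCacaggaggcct
RPS10: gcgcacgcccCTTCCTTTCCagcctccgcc
RPL14: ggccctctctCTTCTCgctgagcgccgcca
RPL28: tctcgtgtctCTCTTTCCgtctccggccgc
RPLP0: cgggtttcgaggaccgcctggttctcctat
RPL22L1: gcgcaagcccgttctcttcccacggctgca
RPS18, RPS10, RPL14 and RPL28 begin with a C and at least 4 further pyrimidines at the RefSeq start, while RPLP0 and RPL22L1 do not. By that rule 13 of the 60 members found in the RefSeq table had a TOP start (21.7%), against 800 of 26965 other genes (2.97%). The annotated start can lie some bases from the one used in cells, and no match says only that these letters are not at that base. In the 250 bases before the start, the letters CCGGAAG, on either strand, were found for 18 of 60 members and for 2097 of 26965 other genes (7.78%). The letters GGGCGG were found for 31 of 60 members (51.7%) and 9524 other genes (35.3%).

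In the injured cord, ribosomal protein genes took a larger share of the monocyte than of the microglia libraries at each time measured in both. RNA per cell was not measured. The summed members took 5.49% and 5.84% of the monocyte libraries at 16 h, 4.39% and 4.23% at day 1, 5.19% and 5.87% at day 3, and 5.66% and 6.04% at day 7. In microglia they took 2.53% and 2.13% at 16 h, 2.06% and 2.57% at day 1, 2.91% and 3.00% at day 3, and 2.28% and 3.14% at day 7. The groups did not overlap: the lowest monocyte library, at 4.23%, was above the highest of all 13 microglia libraries, at 3.31%. Averaged over 16 h and day 1, the share was 4.99% in monocytes and 2.32% in microglia, and over day 3 and day 7 it was 5.69% and 2.83%. Both subunits were higher, the large at 2.57% to 3.69% in monocytes and 1.28% to 1.82% in microglia of the shared times, and the small at 1.66% to 2.46% and 0.782% to 1.32%. With neutrophil and erythroid markers left out of each total, the shares were 4.26% to 6.09% in monocytes and 2.25% to 3.70% in microglia of the shared times. The microglia library with the least neutrophil RNA, day 3 replicate 2 at 4.68%, had a ribosomal protein share of 3.00%. Removing marker transcripts from the total does not remove the other RNA of neutrophils, and its part in the difference was not tested.

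**Figure D1:**
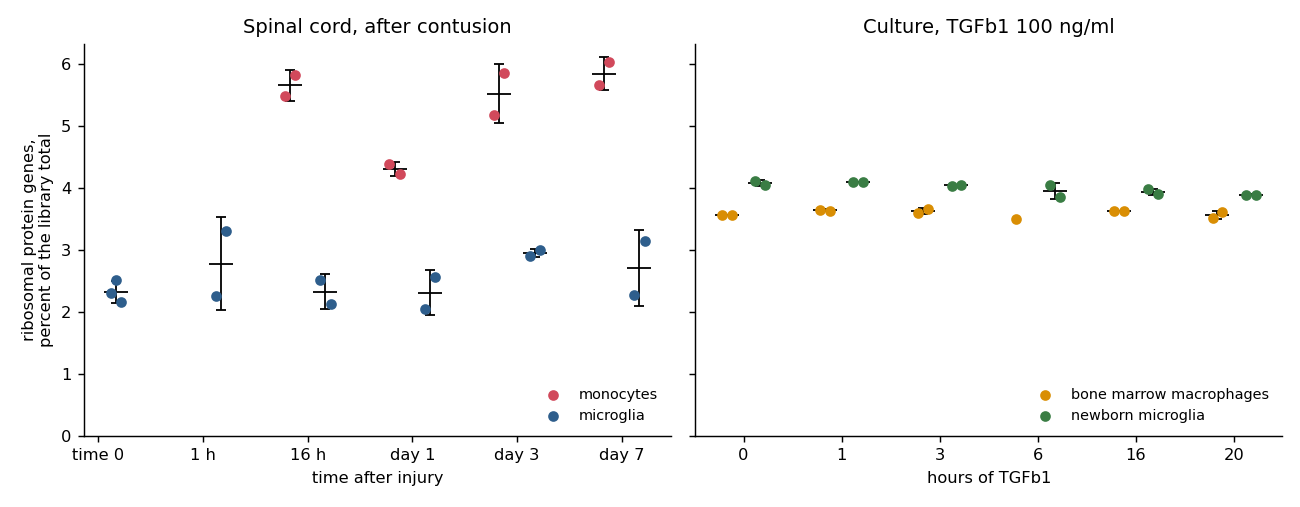
Summed ribosomal protein genes as a percent of each library's total (y axis), by time after contusion (left, monocytes and microglia) and by hours of TGFb1 (right, bone marrow macrophages and newborn microglia). Points are libraries and bars the mean ± SD; monocytes lie between 4.23% and 6.04% and cord microglia between 2.06% and 3.31%, while the cultures differ by less.

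Early after injury (16 h and day 1 as 1 mean, 4 libraries a side), all 75 members had higher fitted values in monocytes, with a median log2 difference of 1.01 against 0.00 over all 8218 genes. Of the members 10 rose and 0 fell at an adjusted p under 0.05 (limma, Benjamini-Hochberg over all genes), where 1.01% of all genes rose and 1.91% fell. The 4 monocyte libraries all lay above the 4 microglia libraries for 57 members (76.0%), as they did for 7.54% of all genes. RPLP0, the scaffold of the acidic stalk that recruits translation factors, had 260, 270, 211 and 236 in monocytes, against 106, 87.5, 99.8 and 76.6 in microglia. Its values averaged 244 ± 26.2 in monocytes and 92.5 ± 13.2 in microglia (SD, n = 4 each), a log2 difference of 1.40 (SE 0.27, limma adjusted p = 0.00157). The lowest monocyte library was thus above the highest microglia library. RPS18, a protein of the small subunit head, had 233, 205, 171 and 160 in monocytes, against 102, 92.8, 45.0 and 72.6 in microglia (log2 difference 1.34, limma adjusted p = 0.00185). RPL8, RPL32 and RPS14 were also called, with log2 differences of 1.00, 1.39 and 1.35. RPS14 lines the mRNA path of the small subunit, and RPL8 lies near the peptidyl transferase centre.

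Without the 4 libraries over 0.1% erythroid RNA, 3 of which are in this comparison, 0 members were called, with a median log2 difference of 1.03. They became 6, 6, 4, 5 and 4 without, in turn, microglia 16 h replicate 2, monocytes 16 h replicates 1 and 2 and monocytes day 1 replicates 1 and 2; RPLP0, RPS18, RPL8 and RPL32 were called each time.

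Later (day 3 and day 7, 4 libraries a side), 73 of 75 members had higher fitted values in monocytes, with a median log2 difference of 0.79 against 0.10 over all genes. Of the members 8 rose and 0 fell, where 1.27% of all genes rose and 1.33% fell. The libraries did not overlap for 33 of 75 members, against 6.19% of all genes. RPL27A, a protein of the large subunit, had 73.5, 112, 61.6 and 87.1 in monocytes, against 33.1, 30.6, 15.7 and 13.5 in microglia. Its values averaged 83.5 ± 21.6 in monocytes and 23.2 ± 10.1 in microglia (SD, n = 4 each), a log2 difference of 1.87 (SE 0.37, limma adjusted p = 0.00334). In microglia it was lower at day 7 than in any other microglia library. RPL32, RPS10, RPL14 and RPL41 were called with log2 differences of 1.24, 1.58, 1.47 and 1.02, and RPS18 and RPL22 with 0.98 and 1.38. The count was 5, 14, 2, 1, 2 and 2 without, in turn, microglia day 3 replicate 2 and day 7 replicate 2, monocytes day 3 replicates 1 and 2 and monocytes day 7 replicates 1 and 2, and RPL27A lost its call without monocytes day 3 replicate 2. Without the libraries over 0.1% erythroid RNA, none of which is in this comparison but which share the estimate of spread, the count was 2.

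**Figure D2:**
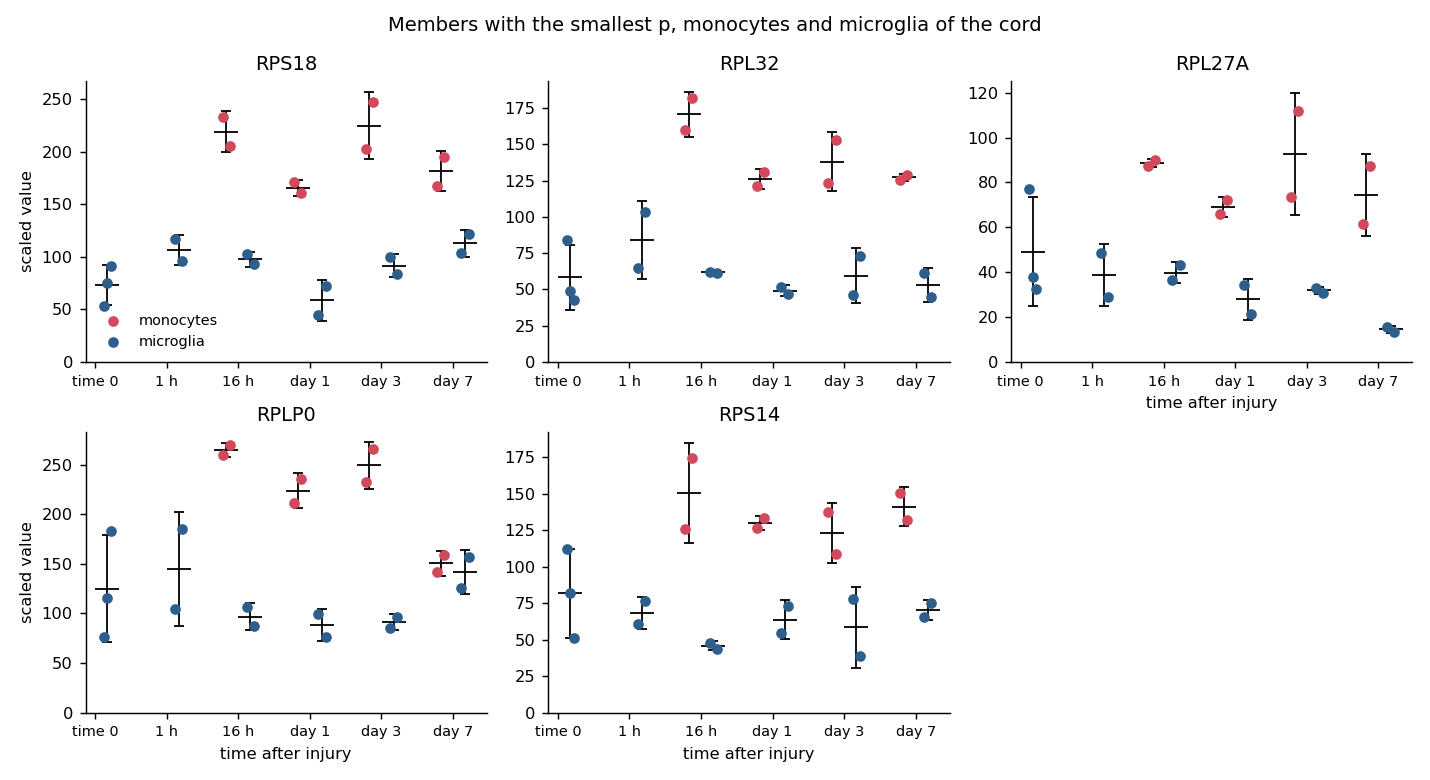
Scaled values (y axis) of 5 of the members with the smallest p between monocytes and microglia, by time after injury. Points are libraries and bars the mean ± SD; for RPS18, RPL32, RPL27A and RPS14 the 8 monocyte libraries lie above the 8 microglia libraries of the same times, and for RPLP0 the day 7 libraries overlap.

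All 4 shared times together (8 libraries a side, a comparison added after the data were seen) gave 37 members that rose and 0 that fell, where 3.97% of all genes rose and 3.6% fell. The median log2 difference was 0.91, against 0.05 over all genes, and the 8 monocyte libraries lay above the 8 microglia libraries for 21 members (28.0%), as for 1.01% of all genes. RPS18 ranged from 160 to 247 with a median of 199 in monocytes, and from 45.0 to 122 with a median of 96.3 in microglia (log2 difference 1.16, limma adjusted p = 8.37e-05). RPL32 ranged from 121 to 181 with a median of 130 in monocytes, and from 45.0 to 73.0 with a median of 56.5 in microglia (1.32, limma adjusted p = 0.000107). In neither of these members did the libraries overlap. RPL27A, RPLP0 and RPS14 were also among the 6 with the smallest p, at 1.55, 1.08 and 1.21, and these 5 were called under each of the 25 alternatives run. Those do not include the scaling, given below, that sets the summed members to the same total in every library. Under that scaling none of these 5 was called, with limma adjusted p from 0.0864 (RPL27A) to 0.454 (RPLP0). The count was 15 without the 4 libraries over 0.1% erythroid RNA.

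**Figure D3:**
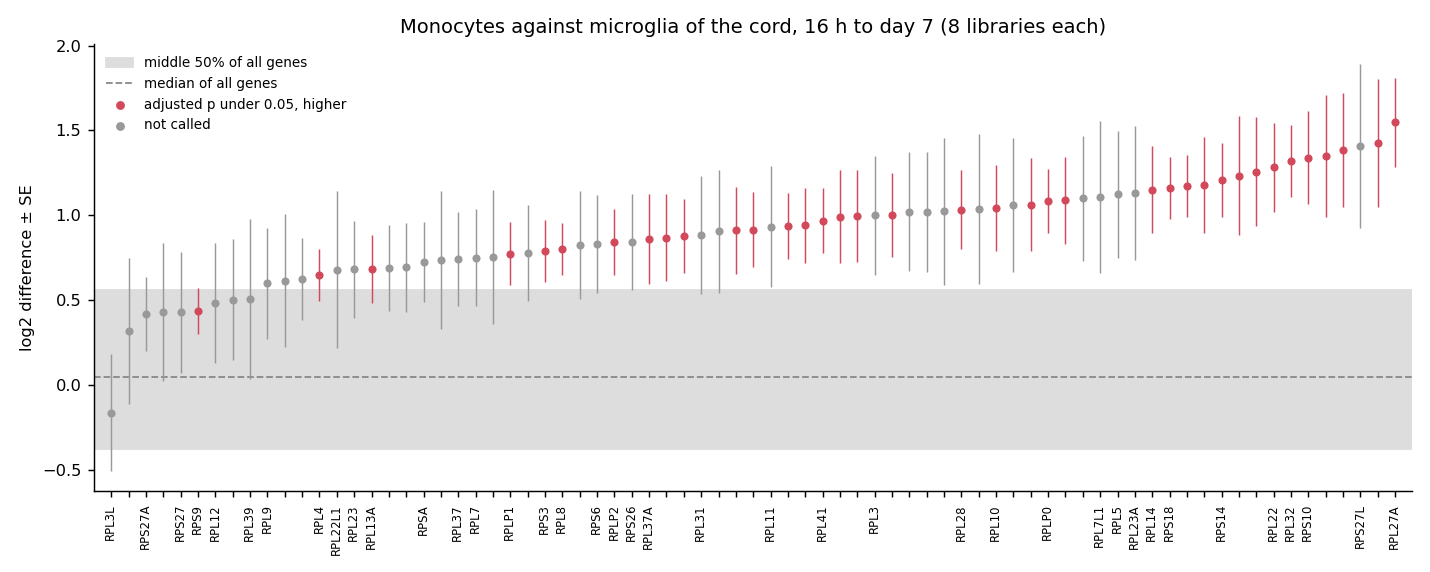
Log2 difference, monocytes minus microglia, of the 75 members over 16 h to day 7 (8 libraries each), in order of size, with the standard error; members named in the text are labelled. The band is the middle 50% of all 8218 genes and the dashed line their median; 74 members are above 0, 37 of them called (red).

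Of the acidic stalk genes, RPLP1 had 540 ± 105 in monocytes (SD, n = 8), against 316 ± 63.6 in microglia of the shared times (log2 difference 0.77, limma adjusted p = 0.00827). RPLP2, its dimer partner, had 172 ± 21.9 in monocytes and 98.2 ± 27.0 in microglia (0.84, limma adjusted p = 0.00598). RPSA, also known as the laminin receptor precursor, had 82.9 ± 10.4 in monocytes and 52.2 ± 18.2 in microglia (0.72, limma adjusted p = 0.0542) and did not pass. RPS6, the substrate of the S6 kinases, did not pass at 45.3 ± 7.12 in monocytes and 25.5 ± 7.18 in microglia (0.83, limma adjusted p = 0.0761). RPS27A, which is made as a fusion with ubiquitin, did not pass either, at 71.9 ± 8.31 in monocytes and 55.1 ± 15.1 in microglia (0.42, limma adjusted p = 0.277). Of the proteins that bind the p53 regulator MDM2 when free of ribosomes, RPL5, RPL11 and RPL23 had log2 differences of 1.12, 0.93 and 0.68 and none passed. RPL13A, which also represses translation of inflammatory mRNAs as part of the GAIT complex in human monocytes, rose by 0.68 (limma adjusted p = 0.0334).

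The lesser paralogs RPL3L, RPL22L1, RPS27L and RPL7L1 were low in these libraries. RPL3L, the striated-muscle paralog of RPL3, was listed at or near 1 in all but 1 microglia library of day 7 (12.5) and 1 monocyte library of day 7 (4.25). RPL22L1, the paralog of RPL22, had a median of 6.32 in monocytes and 3.11 in microglia (log2 difference 0.68, limma adjusted p = 0.426), while RPL22 had 106 in monocytes and 44.4 in microglia (1.28, limma adjusted p = 0.00185). RPS27L, a p53 target, had a median of 9.62 in monocytes and 1.22 in microglia and did not pass. RPL7L1 had a median of 7.44 in monocytes and 2.72 in microglia and did not pass, and it was listed at 1 in all 4 microglia libraries of day 3 and day 7. RPS27, RPL7, RPL3 and RPL39, their partners and that of RPL39L, did not pass either, at 0.43, 0.75, 1.00 and 0.51, and RPL10 rose by 1.04.

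Within the family, 1 member passed between monocytes and microglia over the 4 shared times. The summed members were set to the same total in every library, a scaling added after the data were seen. It called 1 of 75 members, where 14.4% of all genes were called. This was RPS9, lower in monocytes by 0.41 on the log2 scale (limma adjusted p = 0.0457), although higher by 0.44 and called with the values as deposited. That scaling sets the members near 0 by design (median 0.08) and moves all other genes. With the values as deposited 7.57% of all genes were called, so the 14.4% is no baseline for the members. Without that scaling, members with a TOP start had a median log2 difference of 1.00 (7 of 12 called). Members without one had 0.88 (20 of 45 called), where 3.97% of all genes rose and 3.6% fell. The 25 in vivo members with a small nucleolar RNA gene inside them (GENCODE, by symbol) had a median of 0.84 and the 49 without one 0.97, against 0.23 and 0.04 for other genes with and without one.

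Other genes of the translation apparatus were counted from lists beside the members. Of 30 measured translation factors and TOP-type messages, 6 rose and 0 fell over the 4 shared times, where 3.97% of all genes rose and 3.6% fell, and their median log2 difference was 0.61 against 0.05 over all genes. Among those that rose was TPT1, the growth-linked tumour protein TCTP, at 324 ± 95.1 in monocytes and 140 ± 28.4 in microglia (SD, n = 8 each; log2 difference 1.16, limma adjusted p = 9.69e-06). GNB2L1, the small-subunit scaffold RACK1, also rose (1.04, limma adjusted p = 0.000424). This list took 1.30% to 1.73% of the monocyte libraries and 0.737% to 0.971% of the microglia libraries of the shared times. Of 58 mitochondrial ribosomal protein genes, 4 rose and 0 fell against the same shares of all genes, with a median of 0.33, led by MRPL52 (1.99) and MRPS17 (1.79). Of 36 ribosome biogenesis genes limma called 0 in either direction (7.57% of all genes), with 3 at an unadjusted p under 0.05 (21.5% of all genes) and a median of 0.15. Among 23 genes of growth control, with a median of 0.06, DDIT4, an inhibitor of mTOR, rose (1.34), while MXD1, an antagonist of MYC, and the kinase RPS6KA1 fell by 2.87 and 1.08. MXD1 had 14.3 ± 12.2 in monocytes and 95.0 ± 69.8 in microglia, and it fell together with 15 of 21 neutrophil markers; the part of neutrophil RNA in its difference was not tested.

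No member was called over the times after injury within a cell type (limma; 0.073% of all genes called at 1 h, 1.52% at 16 h and day 1 and 0.0122% at day 3 and day 7 in microglia against time 0). At an unadjusted p under 0.05 the counts of members were 2, 4 and 6 of 75, where 7.76%, 13.9% and 13.3% of all genes passed. The share in microglia was 2.25% and 3.31% at 1 h, against 2.30%, 2.51% and 2.16% at time 0, so that the 1 h libraries spanned nearly the range of all microglia. Averaged over day 3 and day 7 it was 2.83%, against 2.32% over 16 h and day 1, and these libraries overlapped; the median member differed by 0.30 (log2), with 58 of 75 higher, and 0 were called (1.28% of all genes called). At an unadjusted p under 0.05 there were 5 members, where 12.9% of all genes passed. Leaving out microglia day 1 replicate 2 gave 1 call. In monocytes the share was 5.69% at day 3 and day 7 and 4.99% at 16 h and day 1, where both day 1 libraries were the lowest. Of the 75 members 56 were higher late, and 0 were called (0.84% of all genes called). At an unadjusted p under 0.05 there were 0 (limma, 6.08% of all genes). The fit takes 1 spread per gene from monocytes and microglia together, with a median standard error of 0.40 in both. Monocyte replicates differed by a median of 0.15 to 0.22 (log2) over the members, and microglia replicates by 0.37 to 0.67. The calls in monocytes thus do not rest on their own, smaller spread. The test of whether the late against early change differed between monocytes and microglia called 0 members (limma, 0.0122% of all genes called). At an unadjusted p under 0.05 there was 1 (5.39% of all genes).

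In culture the members took 3.5% to 3.67% of the macrophage libraries and 3.87% to 4.12% of the microglia libraries, with no overlap. Within macrophages the share was 3.52% to 3.63% at 16 and 20 h, against 3.56% and 3.57% at 0 h. Within microglia it was 3.89% to 3.98% at 16 and 20 h, against 4.12% and 4.05% at 0 h, and all 4 later libraries lay below those of 0 h. The defining markers matched the labels: SALL1, a microglial transcription factor, was listed at 1 in all 11 macrophage libraries and had a median of 46.8 in the microglia, and CCR2 had medians of 62.3 and 1.00.

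Single members differed in both directions between the cultured cell types. At 0 h (2 libraries a side), 17 of 79 members were higher and 41 lower in macrophages than in microglia, where 21.5% of all genes were higher and 29.6% lower. The median was -0.13 for the members and -0.13 for all 12335 genes. With quantile normalization 6 were higher and 55 lower, and with the library total taken without the members 10 were higher and 47 lower. RPLP1 had 5311 and 5325 in macrophages, against 2799 and 2796 in microglia, a log2 difference of 0.93 (SE 0.03, limma adjusted p = 7.3e-15). RPLP0 had 2288 and 2191 in macrophages, against 1691 and 1605 in microglia (0.44, limma adjusted p = 3.78e-08; not called with quantile normalization, limma adjusted p = 0.742). The third stalk gene, RPLP2, was lower in macrophages (-0.19, limma adjusted p = 0.00121), so the stalk genes did not share a direction. RPL9, RPL12, which anchors the stalk with RPLP0, RPL37 and RPL28 were higher in macrophages by 0.71, 0.65, 0.38 and 0.50. The call of RPL37 was lost with quantile normalization (limma adjusted p = 0.165).

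Of the paralogs, RPL7L1 and RPS27L were higher in macrophages by 0.53 and 0.26, while their partners RPL7 and RPS27 were lower by 0.69 and 0.33 on the log2 scale. RPL22L1 was lower by 0.53, and RPL22 did not pass (-0.12, limma adjusted p = 0.133). RPL39 was higher by 0.18, and RPL39L (-0.11), RPL10 (0.14) and RPSA (-0.05) did not pass. RPS6, RPS27A, RPL5 and RPL23 were lower in macrophages by 0.33, 0.22, 0.43 and 0.11 on the log2 scale and RPL11 was higher by 0.22. Markers of other cells differed too: of 8 measured oligodendrocyte and astrocyte markers, 1 was higher and 7 lower in macrophages (21.5% and 29.6% of all genes). Of these, the glutamate transporter SLC1A3 was listed at 1 in both macrophage libraries and at a mean of 107 in the 2 microglia libraries. That list took 0.00732% to 0.0134% of the macrophage libraries and 0.0233% to 0.0325% of the microglia libraries, and its part in these differences was not tested.

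RPL21 had the most negative difference of the members, with 12.5 and 18.4 in macrophages, against 175 and 165 in microglia (log2 difference -3.40, SE 0.20, limma adjusted p = 1.94e-11). RPL23A, a protein at the exit of the peptide tunnel, had 43.5 and 47.0 in macrophages, against 262 and 245 in microglia (-2.46, limma adjusted p = 9.09e-12). RPL27A, RPL4 and RPL13A were lower in macrophages by 1.01, 0.87 and 0.79 on the log2 scale. At 16 and 20 h RPL21 had 14.8, 16.0, 11.6 and 14.9 in macrophages, against 174, 182, 160 and 171 in microglia, and RPLP1 averaged 5217 ± 74.8 in macrophages and 2817 ± 59.8 in microglia (SD, n = 4 each). RPL13A and RPL4 were lower in macrophages by 0.60 and 0.73 on the log2 scale at these times. At 16 and 20 h 18 members were higher and 48 lower in macrophages (27.2% and 36.9% of all genes; with quantile normalization 10 and 60). The median was -0.21 for the members and -0.15 for all genes.

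**Figure D4:**
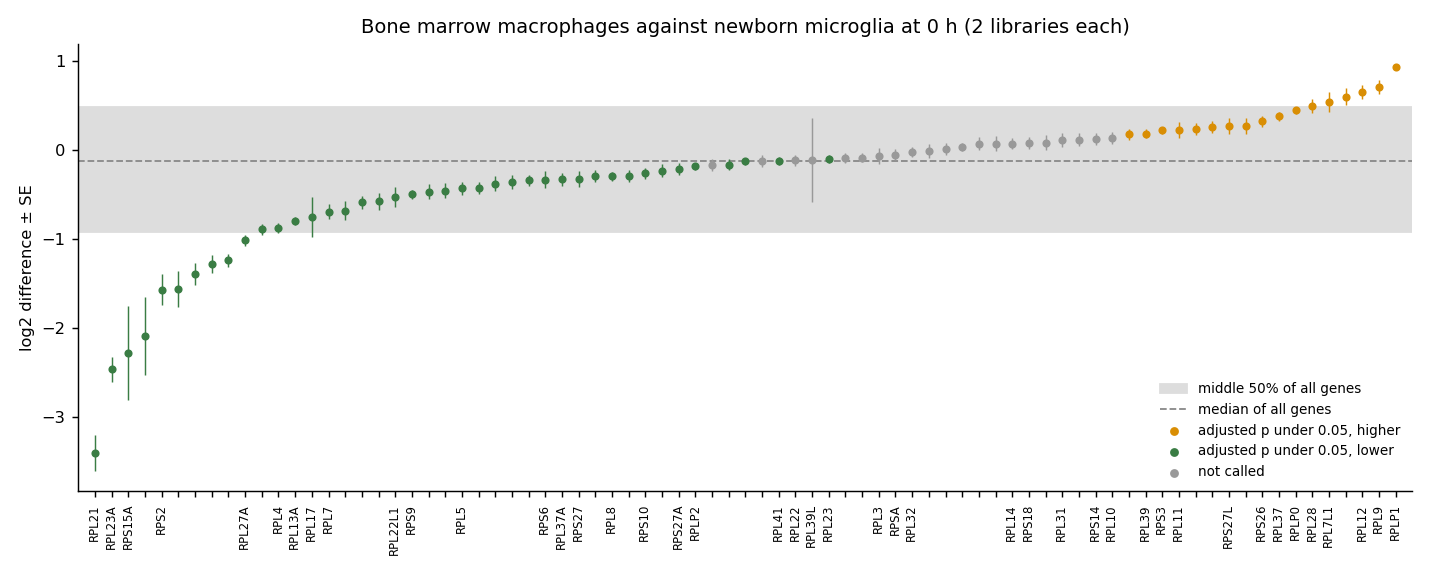
Log2 difference, bone marrow macrophages minus newborn microglia at 0 h (2 libraries each), of the 79 members in order of size, with the standard error; members named in the text are labelled. Called members are orange (17 higher) and green (41 lower); RPL21 is lowest at -3.40 and RPLP1 highest at 0.93, and with quantile normalization 6 are higher and 55 lower.

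Of the 79 members matched by symbol, 28 hold genes of small nucleolar RNAs in GENCODE. Of those 28, 4 were higher and 17 lower in macrophages at 0 h, with a median of -0.21. Of the 50 members without one in this table, 13 were higher and 23 lower, with a median of -0.12. Other genes that hold one had a median of -0.20 and other genes without one -0.13. Of the 23 values of RPL21, 3 were whole numbers of reads, and of those of RPL23A 0. The part of such fractions in their difference was not tested. The 14 members with at least 20% whole values had a median of 0.03 (6 higher and 5 lower). The 65 others had -0.17 (11 higher and 36 lower). Over all genes at 0 h, 21.5% were higher and 29.6% lower.

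Few members changed over the hours of TGFb1. In macrophages at 1 h, 4 rose and 0 fell, where 2.08% of all genes rose and 0.932% fell. Both 1 h libraries lay above both 0 h libraries for 48 members (60.8%; 19.1% of all genes). RPL39 had 1047 and 1035 at 1 h, against 873 and 908 at 0 h (log2 difference 0.23, limma adjusted p = 0.0187), and RPLP0, RPS3 and RPL41 differed by 0.17, 0.16 and 0.17. All 4 calls were lost with quantile normalization, with the total taken without the members, with array weights and with no trend in the variance; 2, 1, 0 and 1 members were called without, in turn, 0 h replicates 1 and 2 and 1 h replicates 1 and 2. At 3 and 6 h, RPL23, RPL8 and RPLP0 rose by 0.13, 0.15 and 0.13 and 0 fell (6.8% of all genes rose and 6.44% fell), while with quantile normalization 0 rose and 1 fell, with the total taken without the members 0 rose and 2 fell, and without 6 h replicate 1 the count was 6. In newborn microglia 0 members were called by limma at 1 h (0.34% of all genes) and 0 at 3 and 6 h (1.16% of all genes). At an unadjusted p under 0.05 there were 2 at 1 h (5.67% of all genes) and 4 at 3 and 6 h (7.94% of all genes).

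At 16 and 20 h, 2 members rose and 8 fell in macrophages, where 6.32% of all genes rose and 5.94% fell. The split turned with the scaling: 10 rose and 3 fell with quantile normalization, and 6 rose and 5 fell with the total taken without the members. RPS27A had 552, 539, 495 and 521 at 16 and 20 h, against 665 and 609 at 0 h (log2 difference -0.27, SE 0.06, limma adjusted p = 0.00333). RPL32 had 1216, 1330, 1204 and 1252, against 1477 and 1436 at 0 h (-0.22, limma adjusted p = 0.00449; not called with quantile normalization). RPS26, RPL31 and RPL37A fell by 0.23, 0.26 and 0.23, and RPL4 and RPS9 rose by 0.17 and 0.14; the calls of RPS26 and RPL37A were lost with quantile normalization, that of RPL37A also with the total taken without the members, those of RPL4, RPS9 and RPL37A with array weights and that of RPS9 with a block by column letters. Without 0 h replicate 1 the calls of RPS27A, RPL32, RPL31 and RPL37A were lost, and without 0 h replicate 2 those of RPL4, RPL31 and RPS9; 5 members were called in each of these fits. Without 16 h replicate 1 or 20 h replicate 2 the calls of RPL4 and RPS9 were lost, without 16 h replicate 2 that of RPS9 and without 20 h replicate 1 that of RPL31. The largest change was that of RPL39L, the paralog of RPL39, which had 6.85, 8.36, 3.73 and 1.00 at 16 and 20 h, against 10.9 and 18.4 at 0 h (-1.57, limma adjusted p = 0.0138, with the call lost without 0 h replicate 2). RPL39 itself differed by -0.07 (limma adjusted p = 0.406). RPL39L is at the level of a few reads, and the value of 1.00 is a library with no read.

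RPL22L1, the paralog of RPL22, followed a different course in each cultured cell type. In macrophages it had 236, 200, 193 and 196 at 16 and 20 h, against 177 and 161 at 0 h (log2 difference 0.28, limma adjusted p = 0.0693), all 4 above both but not called. In microglia it fell to 189, 176, 183 and 175 at 16 and 20 h, against 246 and 241 at 0 h (-0.43, SE 0.10, limma adjusted p = 0.017), the 1 member called there (1.5% of all genes rose and 1.51% fell). That call was lost without either 0 h replicate, 16 h replicate 2 (lettered a in the column headers) or 20 h replicate 2. The difference of the changes, macrophages minus microglia, was 0.71 (SE 0.14, limma adjusted p = 0.00397; 4.38% of all genes called), and it was called under each of the 21 alternatives run, with adjusted p from 0.0011 to 0.0325. Of the 79 members it was the 1 called. Only 2 of its 23 values in culture were whole numbers of reads, and the part of such fractions in this difference was not tested. The macrophages, lower by 0.53 at 0 h (limma adjusted p = 0.000703), were higher by 0.19 at 16 and 20 h, with a limma adjusted p just under the threshold. RPL22 differed by -0.15 in macrophages and by 0.00 in microglia and passed in neither.

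**Figure D5:**
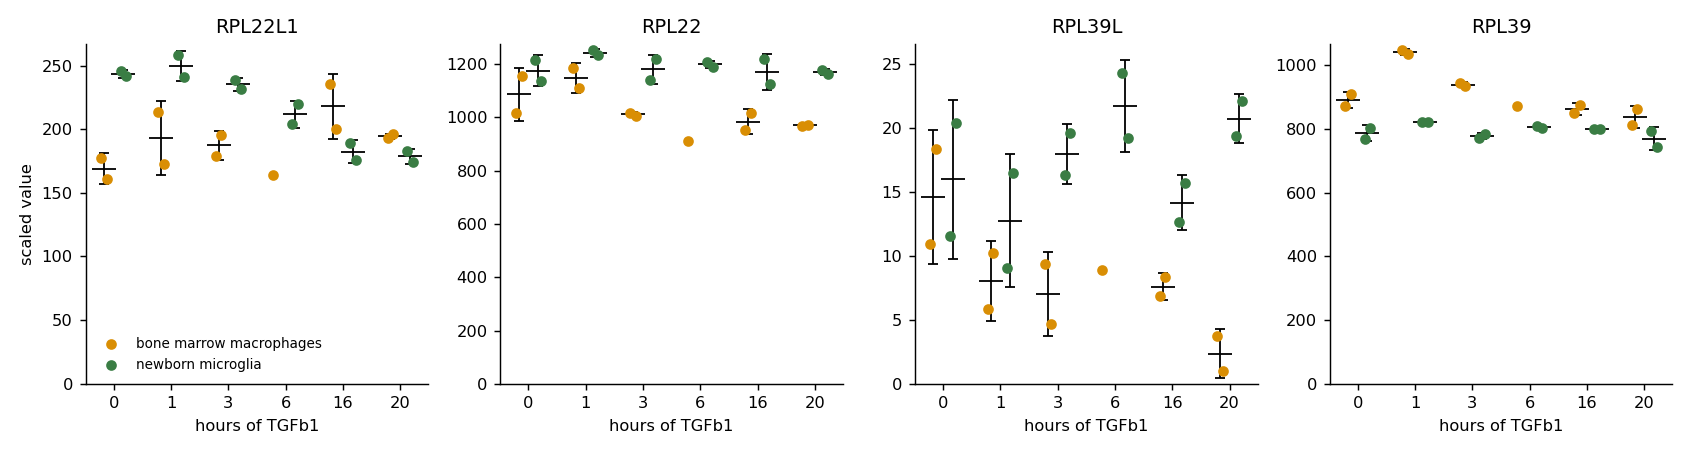
Scaled values (y axis) of RPL22L1 and RPL39L beside their paralogs RPL22 and RPL39, by hours of TGFb1, in bone marrow macrophages and newborn microglia. Points are libraries and bars the mean ± SD; RPL22L1 is at 193 to 236 in macrophages at 16 and 20 h against 161 and 177 at 0 h, and at 175 to 189 in microglia against 241 and 246.

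Other genes of ribosome production also changed in macrophages. Of 42 ribosome biogenesis genes 8 rose and 1 fell at 3 and 6 h (6.8% of all genes rose and 6.44% fell), with a median log2 difference of 0.32 against 0.00 over all genes, led by TSR1, a maturation factor of the small subunit, at 174 ± 22.8 (SD, n = 3) against 67.6 ± 1.32 (n = 2) at 0 h (log2 difference 1.29, limma adjusted p = 4.17e-05), and GAR1, a protein of the box H/ACA snoRNPs (0.97). At 16 and 20 h 0 rose and 6 fell (6.32% of all genes rose and 5.94% fell), with a median of -0.28 against 0.00, led by EBNA1BP2 (-1.09) and the pseudouridine synthase DKC1 (-1.18). MYC, which activates many of these genes, rose by 1.21 at 3 and 6 h and fell by 1.28 at 16 and 20 h, both against 0 h. ATF4, which activates amino acid genes, fell at both (-0.49 and -0.69). Of 33 translation factors 4 rose and 0 fell at 3 and 6 h (median 0.11), and 4 rose and 4 fell at 16 and 20 h (median 0.01), with EIF5A and EIF4A1 falling by 0.30 and 0.38. In newborn microglia limma called 0 of 42 biogenesis genes at 1 h, at 3 and 6 h and at 16 and 20 h, where 0.34%, 1.16% and 3.01% of all genes were called. At an unadjusted p under 0.05 there were 3, 1 and 5 of them, where 5.67%, 7.94% and 11.6% of all genes passed. The test of the difference between the cell types at 16 and 20 h called 0 of them (4.38% of all genes), with 7 at an unadjusted p under 0.05 (16.5% of all genes). All these lists were chosen with earlier results of these data known.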

How the data were processed

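RNA was measured in 21 libraries of sorted cord cells and 23 of cultured cells, deposited by the authors as 2 tables of scaled signal values per gene. TopHat and the mm9 build are named in the submitters' processing notes; the counter, the annotation and the scaling were not given in the sources used here. A deposited signal of exactly 1 stands where no read was counted, and low values step by the worth of 1 read (up to 20 reads, tolerance 0.05 steps), which gave the depths. Because the members' values were mostly not whole reads, no count model was run.

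Differences are of log2(value + 1), fitted to all genes of a table with limma 3.58.1 (variance trend, robust), 1 coefficient per group, with Benjamini-Hochberg adjustment and calls under 0.05. A gene needed a value of at least 1 in 2 libraries, which all genes met. The 1 listed where no read was counted also passes, so this is no filter on expression. Adding 1 understates the change of low genes. Fits of combined times give each time equal weight. Sums over members have no test. No column of other samples was used. A row without a gene name held at most 0.0165% of a library and was left out.

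The rule for named genes took the called members with the smallest p (at most 6 in each direction), the stalk genes and RPSA, paralogs with their partners, RPS27A, RPS6, RPL13A, RPL5, RPL11 and RPL23, and 2 called genes per other list and direction. Some members that it takes are not reported here. The members and lists were chosen with earlier results of these data known. Groups came from sample titles, and so did replicate numbers (a and b as 1 and 2 for macrophages) except for cultured microglia, whose titles give none: those were numbered in accession order, which at 16 h is the reverse of the letters in the column headers. The scripts were tested on simulated data. Alternatives were other scalings, pseudocounts, filters, variance models, blocks and left-out libraries. Start and promoter sequences are RefSeq's on GRCm38.p6, matched by symbol, and no coordinates were converted.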

Additional observations from a re-analysis of the deposited data

Results flagged for a closer look

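RPL22L1 drew attention because its change at 16 and 20 h of TGFb1 differed between the cultured cell types by a test of the difference itself. Its values in culture were mostly fractions of a read (2 of 23 whole), so how much of the signal came from this gene is uncertain. The change in macrophages minus that in microglia was 0.71 on the log2 scale (SE 0.14, limma adjusted p = 0.00397), from values of 193 to 236 in macrophages against 161 and 177 at 0 h, and of 175 to 189 in microglia against 241 and 246 at 0 h.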

How the results depend on the processing

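Counts of called members depended on the settings. The split between members called higher and lower did too in macrophages at 3 and 6 h and at 16 and 20 h, where it turned with the scaling. Under the scaling that sets the summed members to the same total, RPS9 was called lower in monocytes (-0.41). Apart from that scaling, no single called member reversed its direction. The members' share, which only left-out libraries and other totals can change, stayed higher in monocytes under each of those run. Monocytes against microglia at 16 h and day 1 gave 10 calls, and 17 with pseudocount 10, 16 with a filter of at least 10 in 2 libraries, 25 with the total taken without the members, 0 with no variance trend, 43 with array weights, 19 with a replicate block and 0 without the libraries over 0.1% erythroid RNA. At day 3 and day 7 the 8 calls became 16 (quantile normalization), 27 (total without the members), 2 (no variance trend), 2 (array weights), 13 (replicate block) and 2 (without erythroid libraries). Over all 4 times the 37 calls became 59, 22 and 15 with the total without the members, no variance trend and no erythroid libraries. The total without the members moved the median of all genes to 0.12, 0.35 and 0.23 in these 3 comparisons. With the settings as reported, 1.01%, 1.27% and 3.97% of all genes rose in them. The share of all genes called under each other setting, or without each library, is not given here. The moves in these counts therefore cannot be told apart from moves of the test over all genes.

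In macrophages the 4 calls at 1 h became 0 with quantile normalization, with the total without the members, with no variance trend and with array weights. The 3 at 3 and 6 h became 1 with quantile normalization, no variance trend and either replicate block, and 0 with array weights. The 10 at 16 and 20 h became 1 with no variance trend and 5 with array weights, and the median over the members went to 0.01 with quantile normalization. The 1 call in microglia at 16 and 20 h became 0 with no variance trend. The difference between cell types at 16 and 20 h (1 call) became 6 (quantile), 4 (total without the members), 2 (median-of-ratios) and 2 (block by column letters). The cause of these moves was not tested, and the share of all genes called under each of these settings is not given here.

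Leaving out 1 library at a time gave 4 to 11 calls at 16 h and day 1, 1 to 14 at day 3 and day 7, 26 to 45 over all 4 times, 0 to 1 for late against early microglia, 0 to 2, 2 to 6 and 5 to 11 for macrophages at 1 h, at 3 and 6 h and at 16 and 20 h, 0 to 1 for cultured microglia at 16 and 20 h and 1 to 3 for the difference between them.

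The share of the members differed, monocytes minus microglia at day 3 and day 7, by 2.86 percentage points, and by 2.46 without neutrophil and erythroid markers. With the 20 genes of highest mean left out of the total, the difference was -0.35 for microglia at 16 h and day 1 against time 0, 0.12 for macrophages at 1 h, -0.11 for cultured microglia at 16 and 20 h, and -0.81 and -0.67 for macrophages minus microglia at 0 h and at 16 and 20 h.

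Same-numbered libraries deviated together with correlations of -0.02 to 0.06 in vivo and, by the letters of the column headers, -0.05 to 0.05 in culture. Such values, mostly from groups of 2 libraries, cannot exclude that same-numbered libraries share animals or dishes, which no label tells. The replicate block is given as an alternative alone. The planned count models were not run. Depth was lowest in cord microglia, where 678 to 4236 reads on all members (13 libraries) limit what single members can show.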
